A study of Mus musculus with 8 samples.

Results

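The genes described here are 10 cytokine genes of the mouse, *Il10*, *Il1rn*, *Il1a*, *Il1b*, *Il18*, *Tnf*, *Il6*, *Il12b*, *Osm*, and *Cxcl2*, out of 54146 genes in the deposited counts. They were chosen by name, as genes of cytokines that promote or restrain inflammation, and each matched 1 gene. RNA was sequenced from Fcgr4+ and Fcgr4- macrophages sorted from the epididymal white adipose tissue (eWAT) of 4 C57Bl6 mice. All 4 mice had eaten a high fat diet freely for 24 weeks and had then been calorie restricted, with food cut by 30%, for 2 weeks, so no mouse without restriction and no lean mouse stands beside them. Both populations were CD45+ CD11b+ and negative for CD3, B220, Ly6G, and SiglecF, and they differed in surface FCGR4, the mouse Fc gamma receptor 4. Each mouse gave 1 library of each population, and the question was how the cytokine genes differed between the populations within a mouse.

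IL-1α and IL-1β signal through the IL-1 receptor and its accessory chain and drive much of the early inflammatory response, and the receptor antagonist encoded by *Il1rn* occupies the same receptor without signaling. IL-10, made largely by macrophages and lymphocytes, acts through its receptor and STAT3 to dampen the transcription of inflammatory cytokines in myeloid cells. In obese adipose tissue, macrophages are a main source of TNF, IL-1β, and IL-6, and IL-1β and IL-18 are made as precursors that caspase-1 cleaves before release, so that the transcript of either gene is not a measure of the active cytokine.

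The libraries held between 35992794 and 66856746 counts. Levels are given as normalized CPM, the count of a gene relative to the library total after scaling between libraries, and 3 counts, taken as the floor, correspond to between 0.0439 and 0.0882 CPM. All 10 cytokine genes had at least 10 counts in at least 4 of the 8 libraries and were tested, as were 17095 genes in all. *Fcgr4*, the gene of the sorted receptor, ranged from 138 to 236 CPM in Fcgr4+ and from 48.4 to 82.8 CPM in Fcgr4- libraries, a log2 fold change of 1.61 ± 0.173 (SE, n = 4 mice; adjusted P = 0.0162, edgeR). Its transcript was therefore present in both populations. The macrophage genes *Adgre1*, *Csf1r*, and *Cd68* were present in all 8 libraries, and none of the 10 macrophage markers was at 0 counts in a population.

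Between the populations, *Il1b* was the 1 cytokine gene of the 10 that passed the threshold, an adjusted P under 0.1 in a paired quasi-likelihood test (edgeR), and it was lower in Fcgr4+ macrophages. Among all tested genes, 1.19% passed as lower and 0.0819% as higher. No cytokine gene passed as higher with edgeR, although *Il10* and *Il18*, 2 of the 10, were higher with an unadjusted P under 0.05 and were higher in 4 of 4 mice. *Il1a*, *Il1b*, and *Il12b*, 3 of the 10, were lower with an unadjusted P under 0.05. At that cutoff 3.1% of all tested genes were higher and 6.67% lower. A gene was higher in 4 of 4 mice for 8.35% of all tested genes and lower in 4 of 4 for 10.4%, and *Il1b* and *Il12b* were the 2 cytokine genes lower in 4 of 4. With DESeq2, which called 5.99% of all tested genes, 2 of the 10 passed, *Il10* as higher and *Il1b* as lower. The fitted log2 fold change was above 0 for 2 of the cytokine genes and below 0 for 8, with a median of -0.51, where the median of all tested genes was -0.0025. In mouse 1, 8 of the 10 were higher in the Fcgr4+ library, all but *Il1b* and *Il12b*, as were 52.5% of all tested genes.

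**Figure D1:**
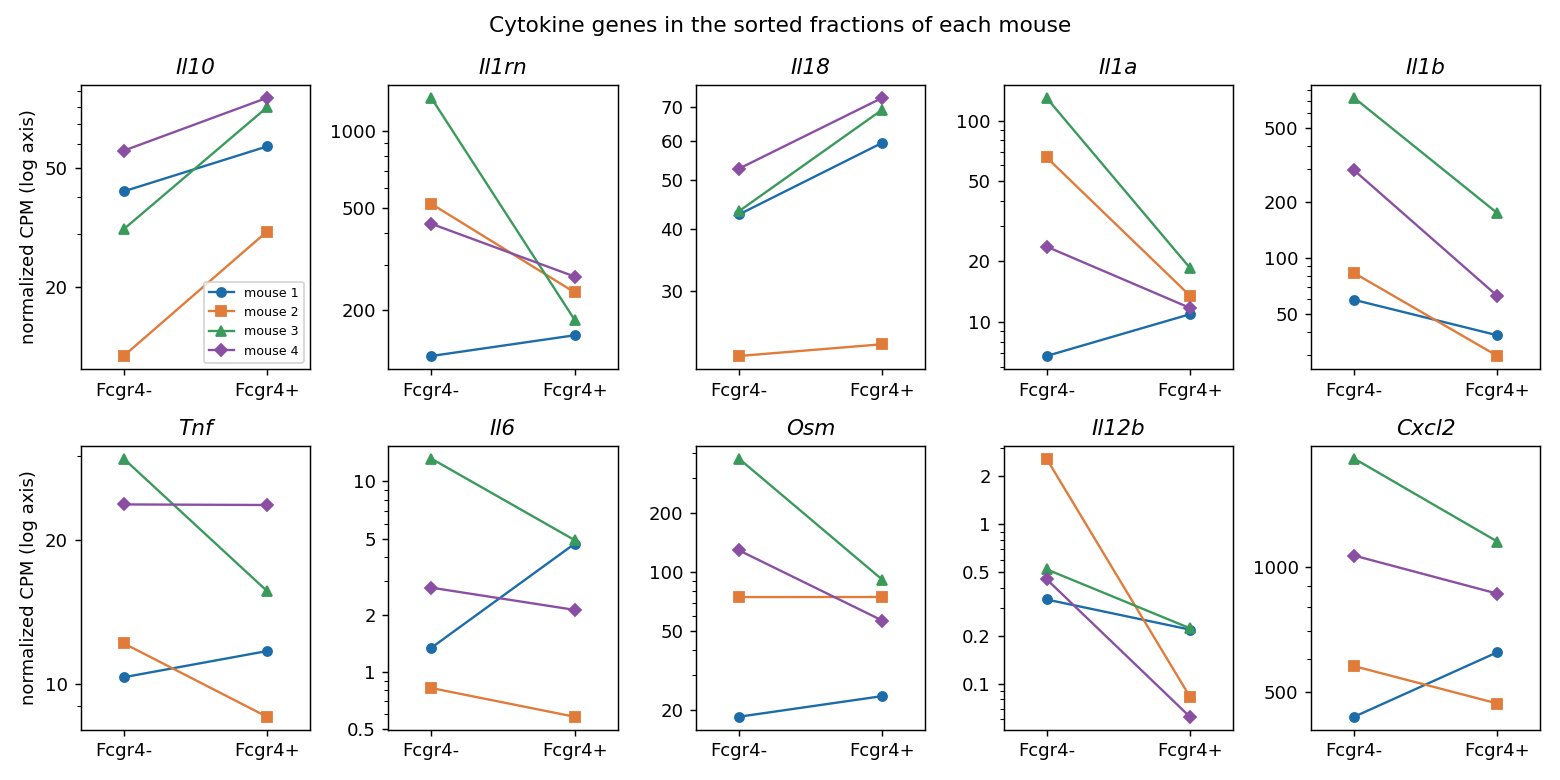
Normalized CPM (log axis, scaled separately for each gene) of the 10 cytokine genes in the Fcgr4- and Fcgr4+ libraries, with 1 line for each of the 4 mice. *Il10* and *Il18* are higher in Fcgr4+ in each mouse and *Il1b* and *Il12b* lower in each, while for *Il1rn*, *Il1a*, *Tnf*, *Il6*, and *Cxcl2* the line of mouse 1 slopes against the other 3.

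*Il10* (chromosome 1 of mm10, 131019845 to 131024974, plus strand) encodes IL-10. In Fcgr4+ macrophages it was at 58.9, 30.6, 79.5, and 85.6 CPM in mice 1 to 4. In Fcgr4- macrophages it was at 41.7, 11.7, 31.1, and 57.0 CPM in the same mice. The Fcgr4+ library was the higher one in each mouse, yet the populations overlapped, since the Fcgr4+ library of mouse 2 lay below the Fcgr4- libraries of mice 1, 3, and 4. Within mice the log2 ratio was 0.50, 1.38, 1.35, and 0.59, and the fitted log2 fold change of 0.95 ± 0.199 (SE, n = 4) corresponds to a 1.93-fold higher level. Its adjusted P was 0.126 with edgeR, which misses the threshold, and 8.29e-04 with DESeq2. The value was 0.93 in mice 1 and 2 alone and 0.95 in mice 3 and 4 alone, the pairs that share an animal ID prefix.

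*Il18* (chromosome 9, 50554827 to 50581840, plus strand) encodes the IL-1 family cytokine IL-18, whose known actions include raising interferon γ output by T and NK cells. It was at 59.4, 23.4, 69.3, and 73.2 CPM in Fcgr4+ macrophages of mice 1 to 4. In Fcgr4- macrophages it was at 42.7, 22.2, 43.3, and 52.7 CPM. The pattern over libraries was much like that of *Il10*, with mouse 2 lowest in both populations. The log2 fold change was 0.43 ± 0.145 (SE, n = 4; adjusted P = 0.379, edgeR), and mouse 2 contributed the smallest log2 ratio, 0.08. *Il18bp*, which encodes the secreted protein that binds and neutralizes IL-18, ranged from 39.6 to 62.2 CPM in Fcgr4+ and from 8.29 to 30.8 CPM in Fcgr4- libraries. Its log2 fold change of 1.24 ± 0.255 (SE, n = 4) had an adjusted P of 0.118 with edgeR and 1.06e-04 with DESeq2. *Il18r1*, a chain of the IL-18 receptor, was at most 0.902 CPM and was not tested.

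*Il1b* lies on chromosome 2 of mm10 (129364570 to 129371139, minus strand), and 54597 bases separate it from *Il1a* (129299610 to 129309972, minus strand). The promoter windows of both, 250 bases before to 50 after the start of transcription, are shown because the genes are neighbors and 1 of them passed the threshold. They are RefSeq sequences of GRCm38.p6, the assembly of mm10, and capitals mark matches to TATAAA (the TATA box) and to TGANTCA (the AP-1 motif) on either strand.
Il1b, chr2:129371090-129371389, minus strand: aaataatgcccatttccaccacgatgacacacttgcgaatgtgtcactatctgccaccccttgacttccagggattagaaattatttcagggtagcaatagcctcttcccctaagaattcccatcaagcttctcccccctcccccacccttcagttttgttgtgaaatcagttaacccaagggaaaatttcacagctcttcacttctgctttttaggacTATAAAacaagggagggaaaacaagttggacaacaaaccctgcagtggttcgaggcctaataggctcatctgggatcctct
Il1a, chr2:129309923-129310222, minus strand: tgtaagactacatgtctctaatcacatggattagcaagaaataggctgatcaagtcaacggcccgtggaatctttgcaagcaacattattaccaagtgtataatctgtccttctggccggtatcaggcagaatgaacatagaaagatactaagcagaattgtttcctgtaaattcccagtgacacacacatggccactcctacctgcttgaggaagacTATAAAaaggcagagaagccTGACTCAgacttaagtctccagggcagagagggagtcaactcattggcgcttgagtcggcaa
The TATA box begins at position -31 of *Il1b* and -32 of *Il1a*, counted from the start of transcription, and the AP-1 match of *Il1a* at -12. Of 32851 windows of the same length, 13.6% hold a match to TATAAA and 7.81% a match to TGANTCA.

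*Il1b* was at 38.3, 29.7, 173, and 62.3 CPM in Fcgr4+ macrophages of mice 1 to 4. In Fcgr4- macrophages it was at 59.4, 82.8, 724, and 295 CPM. The Fcgr4- library was higher in each mouse, and mouse 3 was highest in both populations, so the spread between mice, 5.85-fold in Fcgr4+ and 12.2-fold in Fcgr4-, was wider than the difference within any mouse. The log2 ratios of mice 1 to 4 were -0.63, -1.48, -2.06, and -2.24. The fitted log2 fold change was -1.61 ± 0.274 (SE, n = 4; adjusted P = 0.0666, edgeR), a 3.06-fold lower level in Fcgr4+ macrophages. Without mouse 1 the adjusted P was 0.0425, and without mouse 2, 3, or 4 it was 0.159, 0.122, or 0.194, so the call did not hold without any of these 3 mice. With mouse left out of the model it was 0.783. The fold change was -1.06 in mice 1 and 2 alone (adjusted P = 0.261, edgeR) and -2.18 in mice 3 and 4 alone (adjusted P = 0.0612, edgeR). A test of the difference between these pairs of mice gave an unadjusted P of 0.0145 and an adjusted P of 0.314 (edgeR). An antisense gene, *Il1bos*, overlaps 1.31% of the exon bases of *Il1b*, and strand was not used in the counting.

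*Il1a* encodes IL-1α, which is active without cleavage by caspase-1. It was at 10.9, 13.5, 18.6, and 11.8 CPM in Fcgr4+ macrophages of mice 1 to 4. In Fcgr4- macrophages it was at 6.78, 65.8, 130, and 23.7 CPM. The Fcgr4+ libraries lay within a 1.70-fold range, and the Fcgr4- libraries within a 19.2-fold range that held lower and higher values than any Fcgr4+ library. The log2 fold change was -1.40 ± 0.559 (SE, n = 4; adjusted P = 0.483, edgeR), and it went from -2.05 without mouse 1 to -0.90 without mouse 3. The antisense gene *Gm14023* overlaps 11.3% of the exon bases of *Il1a*, so the count of *Il1a* is less certain over those bases.

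*Il1rn* (chromosome 2, 24336853 to 24351494, plus strand) was at 160, 235, 184, and 271 CPM in Fcgr4+ macrophages of mice 1 to 4. In Fcgr4- macrophages it was at 133, 521, 1352, and 436 CPM. The antagonist gene thus had the shape of *Il1a*, with Fcgr4+ libraries close together and Fcgr4- libraries spread over a 10.2-fold range on both sides of them. Its log2 ratios were 0.27, -1.15, -2.88, and -0.69, and the fitted log2 fold change was -1.08 ± 0.466 (SE, n = 4; adjusted P = 0.513, edgeR). Without mouse 3 it was -0.54.

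*Tnf* (chromosome 17, 35199381 to 35202007, minus strand) encodes tumor necrosis factor. It was at 11.7, 8.54, 15.7, and 23.7 CPM in Fcgr4+ and at 10.3, 12.2, 29.7, and 23.8 CPM in Fcgr4- macrophages of mice 1 to 4. The populations overlapped between 10.3 and 23.7 CPM, and the Fcgr4- library was lower in mouse 1. The log2 fold change was -0.31 ± 0.218 (SE, n = 4; adjusted P = 0.648, edgeR).

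*Il6* (chromosome 5, 30013114 to 30019981, plus strand) encodes IL-6, which signals through the receptor chain gp130. It was at 4.70, 0.582, 4.91, and 2.11 CPM in Fcgr4+ and at 1.34, 0.823, 13.2, and 2.77 CPM in Fcgr4- macrophages. Mice 1 and 3 differed in direction, with log2 ratios of 1.79 and -1.41. The log2 fold change of -0.16 ± 0.532 (SE, n = 4; adjusted P = 0.928, edgeR) changed sign, to 0.31, without mouse 3.

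*Osm* (chromosome 11, 4236420 to 4241026, plus strand) encodes oncostatin M, a gp130 cytokine of the IL-6 family. It was at 23.5, 74.7, 91.4, and 56.7 CPM in Fcgr4+ and at 18.5, 74.6, 376, and 129 CPM in Fcgr4- macrophages. The Fcgr4+ library was barely the higher one in mouse 2, and the log2 ratios were 0.35 and 0.00 in mice 1 and 2 against -2.04 and -1.18 in mice 3 and 4. A test of the difference between these pairs, chosen after seeing the data, had an unadjusted P of 0.00209 and did not pass, at an adjusted P of 0.303 (edgeR). No gene of the 17095 passed in that test, while 2355 had an unadjusted P under 0.05. Over all mice the log2 fold change was -0.72 ± 0.391 (SE, n = 4; adjusted P = 0.585, edgeR), and it was 0.17 in mice 1 and 2 alone.

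*Il12b* (chromosome 11, 44400063 to 44414033, plus strand) encodes the p40 chain shared by IL-12 and IL-23. Its raw counts were 13, 4, 14, and 3 in Fcgr4+ and 22, 88, 29, and 31 in Fcgr4- libraries of mice 1 to 4. It was the only one of the 10 cytokine genes whose populations did not overlap, at 0.0622 to 0.223 CPM in Fcgr4+ and 0.338 to 2.59 in Fcgr4- libraries, and 3.02% of all tested genes were lower in Fcgr4+ macrophages without overlap. The log2 fold change was -2.27 ± 0.884 (SE, n = 4; adjusted P = 0.470, edgeR). It was -2.92 without mouse 1, -1.50 without mouse 2, and -2.74 without mouse 3. In mouse 4, where the Fcgr4+ count was at the floor, the ratio of Fcgr4+ to Fcgr4- was 0.137, with an exact 95% interval of 0.0268 to 0.439 that covers counting error only. The partner chains *Il12a* and *Il23a* were at most 0.705 CPM in Fcgr4+ libraries and reached 2.87 and 4.00 CPM in the Fcgr4- library of mouse 3.

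*Cxcl2* (chromosome 5, 90903871 to 90905938, plus strand) encodes a chemokine that draws neutrophils through the receptor CXCR2. It was at 623, 469, 1150, and 862 CPM in Fcgr4+ and at 436, 577, 1822, and 1065 CPM in Fcgr4- macrophages of mice 1 to 4. The log2 fold change was -0.19 ± 0.202 (SE, n = 4; adjusted P = 0.749, edgeR), and its sign was positive, at 0.11, in mice 1 and 2 alone. Part of its sequence, 5.84% of its 50-base words, also occurs in the paralog *Cxcl3*, and a pair with several alignments was counted at every one. *Cxcl1*, another CXCR2 ligand gene, was at 144 to 304 CPM in Fcgr4+ and 131 to 249 in Fcgr4- libraries, and *Cxcl3* was at 2.27 to 88.8 and 2.34 to 401 CPM.

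The windows of *Cxcl2* and *Il6* are shown because both hold a match to the NF-kB consensus, although *Cxcl2* had the highest and *Il6* the second lowest of the transcript levels per length given below. Capitals mark that match and a match to TGANTCA.
Cxcl2, chr5:90903649-90903948, plus strand: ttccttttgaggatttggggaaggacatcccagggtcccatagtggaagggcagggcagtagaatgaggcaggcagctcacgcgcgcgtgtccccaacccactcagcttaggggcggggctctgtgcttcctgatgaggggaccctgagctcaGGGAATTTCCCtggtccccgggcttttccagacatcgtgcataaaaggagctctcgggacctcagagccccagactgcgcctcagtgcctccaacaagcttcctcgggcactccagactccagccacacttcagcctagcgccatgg
Il6, chr5:30012864-30013163, plus strand: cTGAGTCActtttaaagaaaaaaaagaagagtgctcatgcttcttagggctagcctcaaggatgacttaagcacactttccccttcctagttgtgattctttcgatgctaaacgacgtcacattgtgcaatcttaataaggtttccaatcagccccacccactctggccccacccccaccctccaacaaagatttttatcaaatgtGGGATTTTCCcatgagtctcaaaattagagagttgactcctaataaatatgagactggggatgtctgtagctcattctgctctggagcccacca
In *Cxcl2* the consensus matched on both strands at overlapping positions, from -97, and in *Il6* on the plus strand from -44, while the TGANTCA match of *Il6* begins at -249. A match to the NF-kB consensus was present in 4.51% of the 32851 windows. Of the 8 cytokine genes with a window in RefSeq, no window of *Il1a*, *Il1b*, *Il1rn*, *Il12b*, *Il18*, or *Tnf* held these letters, which says only that this exact consensus is not within the window.

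**Figure D2:**
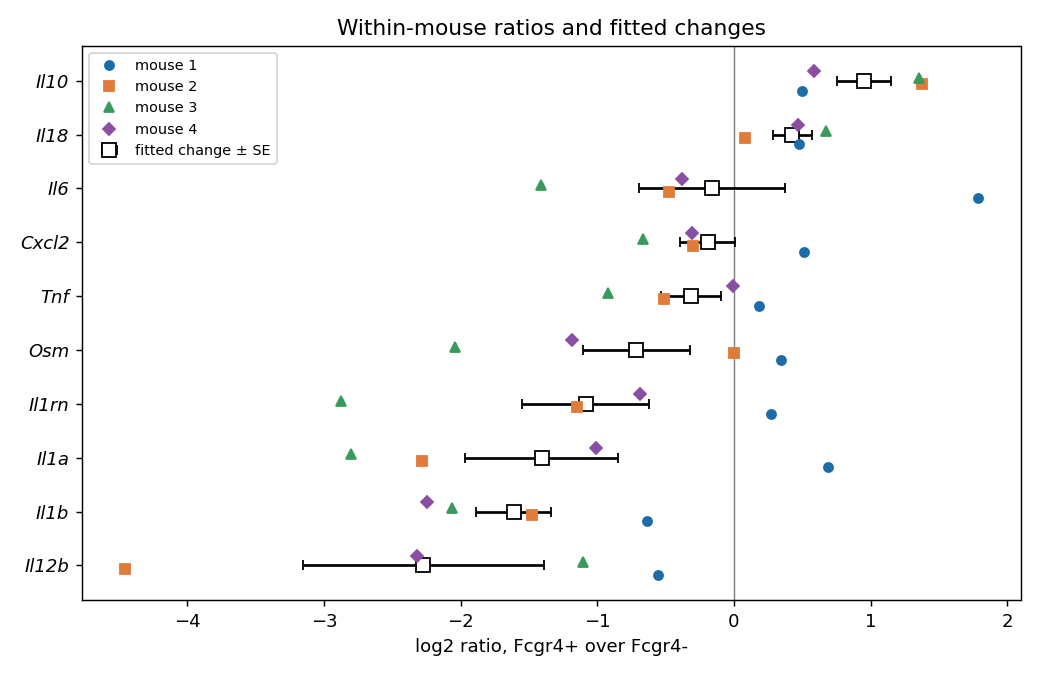
Log2 ratio of Fcgr4+ over Fcgr4- within each of the 4 mice (colored points) and the log2 fold change fitted over all mice with its SE (open squares with bars), for the 10 cytokine genes ordered by the fitted value. *Il10* and *Il18* lie to the right of 0 in every mouse and *Il1b* and *Il12b* to the left, and mouse 1 is the rightmost point for the other 6 genes.

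Per kb of exon, the scale on which levels of different genes can be set side by side, *Cxcl2* stood first with a mean of 423 CPM per kb over the 8 libraries. *Il1b* followed at 96.0, *Il1rn* at 74.4, *Il18* at 46.8, *Osm* at 46.4, and *Il10* at 37.8 CPM per kb. *Il1a* was at 17.8, *Tnf* at 10.3, *Il6* at 1.56, and *Il12b* at 0.285 CPM per kb. From *Il1b* to *Il10*, the ranges of neighbors in this order overlapped in both populations, so their order is not separated from the spread between mice. *Il18* and *Osm* exchanged places under the other scalings tried. *Tnf* and *Il6*, in contrast, were apart in both populations. In Fcgr4+ macrophages alone, the mean level was 54.6 ± 22.0 CPM per kb for *Il18* and 48.6 ± 19.0 for *Il10* (SD, n = 4), above the 39.8 ± 34.9 of *Il1b* and the 38.4 ± 9.06 of *Il1rn*. In Fcgr4- macrophages *Il1b* stood at 152 ± 161 and *Il1rn* at 110 ± 94.3 CPM per kb, above *Il18* at 39.03 ± 12.5 and *Il10* at 27.0 ± 14.5 (SD, n = 4). Neither order of means held in every mouse. In the Fcgr4- library of mouse 1, *Il18* at 41.4 and *Il10* at 31.8 lay above *Il1b* at 31.2 and *Il1rn* at 24.0. In the Fcgr4+ library of mouse 3, *Il1b* at 91.0 lay above *Il18* at 67.2 and *Il10* at 60.7. In that of mouse 2, *Il1rn* at 42.5 lay above *Il18* at 22.7 and *Il10* at 23.3. The Fcgr4- library of mouse 3 was the highest for *Il1b*, *Il1rn*, and *Osm*, at 379.6, 244, and 165 CPM per kb. The means of these genes over the 8 libraries rest in part on that 1 library.

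**Figure D3:**
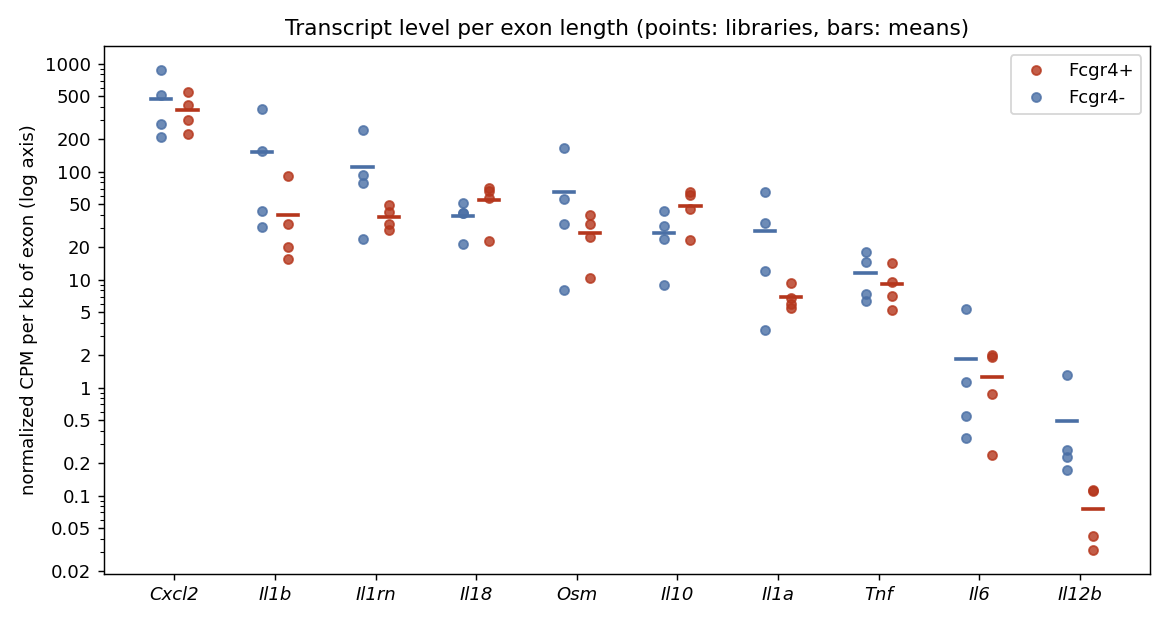
Normalized CPM per kb of exon (log axis) of the 10 cytokine genes in each of the 8 libraries (points), with the mean of each population (bars), ordered by the mean over all libraries. *Cxcl2* is highest at a mean of 423 and *Il12b* lowest at 0.285, and the Fcgr4- points of *Il1a*, *Il1b*, *Il1rn*, and *Osm* are spread far more widely than the Fcgr4+ points of *Il1a* and *Il1rn*.

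Ratios of transcript levels within a library, which do not depend on the scaling between libraries, were set for 3 combinations of cytokine genes. They are given without a test, since 4 pairs are too few for an exact test to reach the threshold. The log2 ratio of *Il10* to *Il1b* per kb was 1.16, 0.59, -0.58, and 1.00 in Fcgr4+ macrophages of mice 1 to 4 and 0.03, -2.28, -3.998, and -1.83 in Fcgr4- macrophages. The difference was 2.56 ± 0.989 on the log2 scale (SD, n = 4), and its sign in each mouse follows from *Il10* being higher and *Il1b* lower in 4 of 4 mice, so it adds nothing to those counts. *Il10* to *Tnf* was higher in Fcgr4+ by 1.27 ± 0.961 (SD, n = 4), in 4 of 4 mice, in 3 of which the sign likewise follows from *Il10* being higher and *Tnf* lower. It lay between 2.16 and 2.67 in Fcgr4+ and between 0.27 and 2.33 in Fcgr4- libraries. The ratio of the antagonist gene *Il1rn* to the sum of *Il1a* and *Il1b* behaved differently. It was 0.17, 0.92, -1.60, and 0.34 in Fcgr4+ and -0.53, 0.30, -0.87, and -1.08 in Fcgr4- macrophages, higher in Fcgr4+ in 3 of 4 mice and lower in mouse 3, with a mean difference of 0.51 ± 0.899 (SD, n = 4) that is smaller than its spread.

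**Figure D4:**
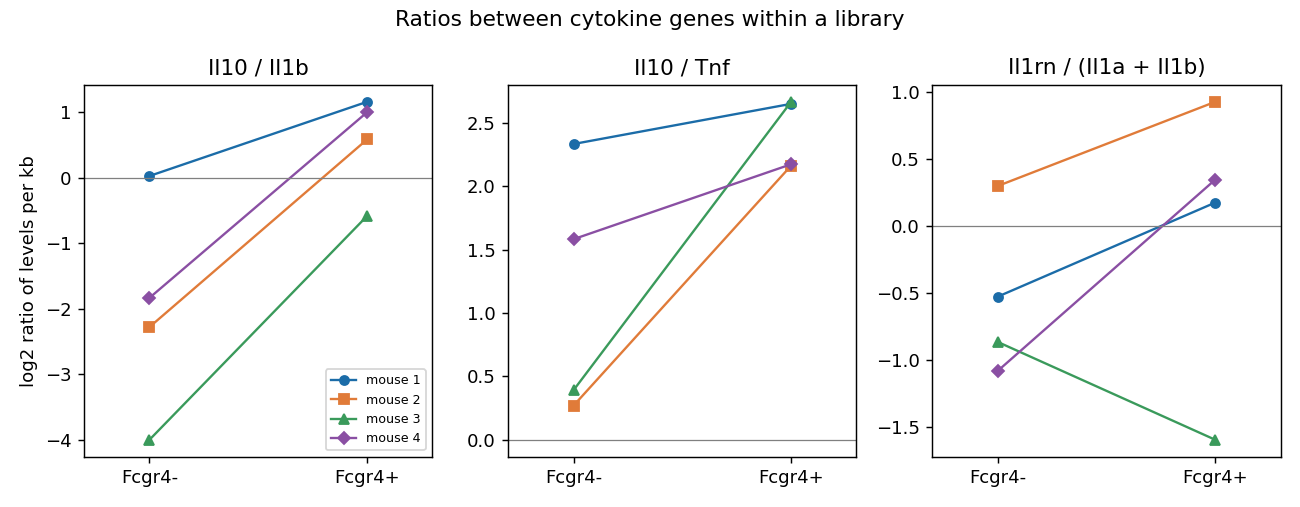
Log2 ratios between cytokine genes per kb of exon in the Fcgr4- and Fcgr4+ libraries, with 1 line for each of the 4 mice. *Il10* over *Il1b* and *Il10* over *Tnf* are higher in Fcgr4+ in each mouse, and *Il1rn* over the sum of *Il1a* and *Il1b* is higher in 3 mice and lower in mouse 3.

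The receptors, partners, and relay genes of these cytokines, together with NF-kB genes and immediate early genes, were taken as 8 lists with 98 tested genes. Of these, 5 passed as lower in Fcgr4+ macrophages and none as higher with edgeR. With DESeq2, 16 passed, 3 of them as higher. Over all tested genes the shares were 1.19% lower and 0.0819% higher with edgeR and 5.99% in either direction with DESeq2, and the list counts below are to be read beside these and beside the 6.67% lower and 3.1% higher at an unadjusted P under 0.05. The 5 were *Il1r2*, *Il1rl1*, *Il1f9*, *Ltb*, and *Cxcr2*. *Il1f9*, the symbol under which the counts list *Il36g*, encodes the IL-1 family cytokine IL-36γ, and it was at 1.85, 2.45, 15.9, and 7.07 CPM in Fcgr4+ against 8.75, 24.8, 219.6, and 53.4 CPM in Fcgr4- macrophages of mice 1 to 4. It was lower in Fcgr4+ in each mouse and highest in mouse 3 in both populations, and its log2 fold change of -3.09 ± 0.266 (SE, n = 4; adjusted P = 0.00803, edgeR) passed without each mouse in turn. *Il1r2* encodes the decoy receptor that binds IL-1 without signaling, and it was at 6.84, 4.01, 38.1, and 19.5 CPM in Fcgr4+ against 21.7, 26.7, 280, and 126 CPM in Fcgr4- macrophages of mice 1 to 4. Within each population its libraries ranked in the same order as those of *Il1b*, with mouse 3 highest, and its log2 fold change of -2.50 ± 0.229 (SE, n = 4; adjusted P = 0.00823, edgeR) passed without each mouse in turn. *Il1r1*, the signaling receptor, was at 0.249 to 2.20 CPM in Fcgr4+ and 1.10 to 8.75 in Fcgr4- libraries, and the accessory chain gene *Il1rap* at 14.3 to 22.8 and 18.4 to 56.7 CPM, and neither passed. In the list of IL-1 and IL-18 receptors and regulators, 5 tested genes passed as lower and 2 as higher with DESeq2. At an unadjusted P under 0.05 (edgeR), 7 were lower and 2 higher. With adjusted P values, edgeR passed 3 of the 16 tested genes as lower and none as higher, with a median log2 fold change of -0.57. The third was *Il1rl1*, the receptor of IL-33, at 3.45 to 9.94 CPM in Fcgr4+ and 10.2 to 30.6 in Fcgr4- libraries (log2 fold change -1.56 ± 0.198, SE, n = 4; adjusted P = 0.0300, edgeR). Its call did not hold without mouse 1, at an adjusted P of 0.123 (edgeR).

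None of the 13 tested genes of the IL-10 receptor and response list passed, 1 had an unadjusted P under 0.05, and 1 passed with DESeq2. *Il10ra* was at 66.9 to 127 CPM in Fcgr4+ and 75.5 to 105 in Fcgr4- libraries, and *Il10rb* at 171 to 278 and 174 to 250 CPM, so the transcripts of both receptor chains were present in each library. The fitted log2 fold change was below 0 for 14 of the 15 tested genes of TNF receptors and relay, with a median of -0.17, and the log2 ratio of their summed level was 0.37, -0.01, -0.77, and -0.44 in mice 1 to 4. Of these genes 1 passed as lower, *Ltb*, which encodes lymphotoxin β, at 0.893 to 2.06 CPM in Fcgr4+ and 3.32 to 13.4 in Fcgr4- libraries (log2 fold change -2.15 ± 0.335, SE, n = 4; adjusted P = 0.0546, edgeR). Without mouse 1, 3, or 4 its adjusted P was 0.173, 0.112, or 0.184 (edgeR). In the same list 3 genes were lower with an unadjusted P under 0.05 (edgeR), and 2 passed as lower with DESeq2. *Tnfrsf1a* was at 87.7 to 109 and 79.9 to 127 CPM, and *Tnfrsf1b* at 178 to 515 and 250 to 529 CPM. For the IL-6 and oncostatin M list, 0 of 7 passed with edgeR, 2 had an unadjusted P under 0.05, and 2 passed with DESeq2. *Il6ra* and *Il6st* were at 27.0 to 47.2 and 25.5 to 39.7 CPM in Fcgr4+ libraries, while *Osmr*, the specific oncostatin M receptor chain, was at most 1.01 CPM there and at most 6.93 in Fcgr4- libraries. For the IL-12 family, 0 of 9 passed with edgeR, 2 had an unadjusted P under 0.05, and 2 passed with DESeq2.

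In the list of CXCR2 ligands and receptors, 1 of 6 tested genes passed as lower, the receptor gene *Cxcr2* itself, at 1.21, 1.08, 4.88, and 1.70 CPM in Fcgr4+ and 3.17, 4.29, 38.6, and 12.2 CPM in Fcgr4- macrophages of mice 1 to 4. Its log2 fold change was -2.33 ± 0.315 (SE, n = 4; adjusted P = 0.0396, edgeR), and without mouse 4 the adjusted P was 0.123. In this list 2 genes were lower and 1 higher with an unadjusted P under 0.05 (edgeR), and 1 passed as lower with DESeq2. Of the 19 NF-kB factors and feedback genes, which cytokine stimulation commonly raises, none passed with edgeR or DESeq2, 1 had an unadjusted P under 0.05, and the median log2 fold change was -0.23. The fitted value was below 0 for 18 of them and above 0 for 1, against 8595 and 8500 of all tested genes, and the log2 ratio of their summed level was 0.38 in mouse 1 and -0.07, -0.83, and -0.44 in mice 2 to 4. Of the 17 immediate early genes, which also respond to the isolation of cells, none passed with edgeR, 2 had an unadjusted P under 0.05, and 1 passed with DESeq2. The median of that list was -0.20, and the fitted value was below 0 for 15 of them and above 0 for 2. The log2 ratio of their summed level was 0.36, 0.08, -0.43, and -0.50 in mice 1 to 4, so it too was higher in Fcgr4+ in mouse 1 and lower in mice 3 and 4, and their part in the differences of the cytokine genes was not tested. The summed level lay between 6884 and 10797 CPM in Fcgr4+ and between 8414 and 11881 in Fcgr4- libraries.

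Markers of neutrophils also differed between the populations. The summed level of 10 neutrophil markers was 121, 192, 547, and 168 CPM in Fcgr4+ and 382, 578, 2388, and 650 CPM in Fcgr4- macrophages of mice 1 to 4. It was lower in Fcgr4+ in 4 of 4 mice, with log2 ratios of -1.65, -1.59, -2.13, and -1.95, where those of *Il1b* were -0.63, -1.48, -2.06, and -2.24. The mouse 3 library was highest in each population, as for *Il1b*. Among Fcgr4+ libraries, the neutrophil sum was lowest in mouse 1 and *Il1b* in mouse 2. Of 9 tested neutrophil markers, 5 passed as lower, *S100a8*, *S100a9*, *Retnlg*, *Cxcr2*, and *Mmp8*. *Ly6g*, whose product the sort selected against, was at 0.0622 to 1.36 CPM in Fcgr4+ and 0.353 to 5.45 in Fcgr4- libraries, and no marker of the list was at 0 counts in a population. In mouse 1, where the log2 ratio of the neutrophil sum was -1.65, *Il1a*, *Il1rn*, *Tnf*, *Il6*, *Osm*, and *Cxcl2* were higher in Fcgr4+. The part of neutrophil transcripts in the differences of *Il1b* and of the other cytokine genes was not tested. In sorted bulk samples, fewer cells of a type and less RNA per cell cannot be told apart.

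**Figure D5:**
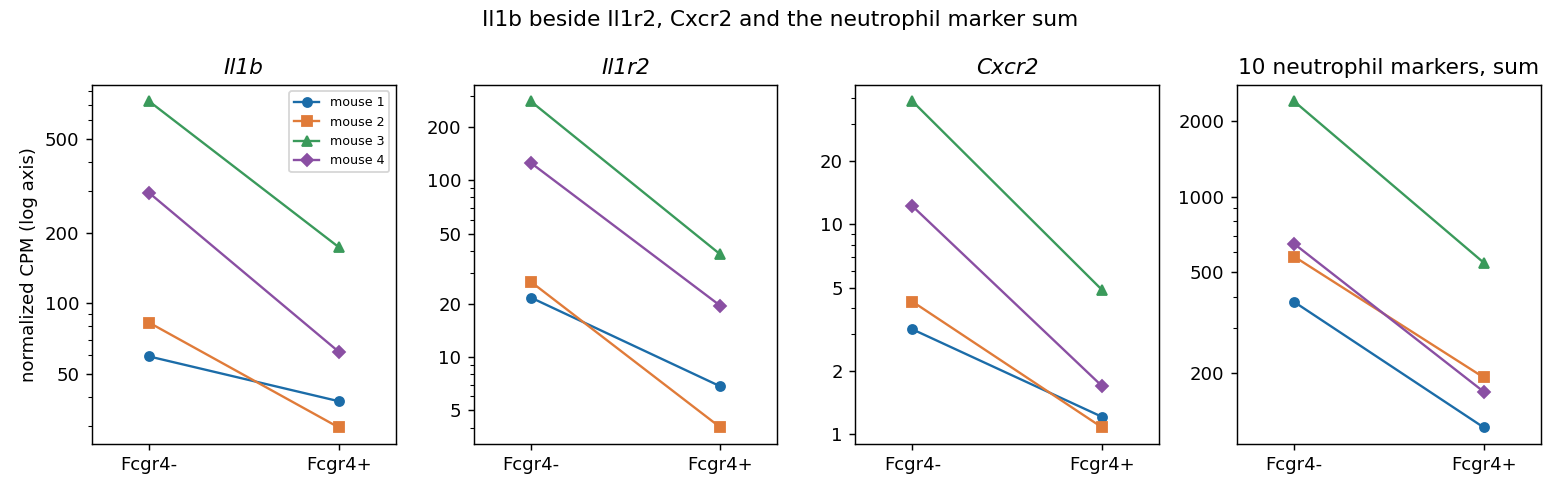
Normalized CPM (log axes) of *Il1b*, of the decoy receptor gene *Il1r2*, of *Cxcr2*, and of the sum of 10 neutrophil markers in the Fcgr4- and Fcgr4+ libraries, with 1 line for each of the 4 mice. All 4 quantities are lower in Fcgr4+ in each mouse and highest in mouse 3 in both populations, with the neutrophil sum at 382 to 2388 CPM in Fcgr4- and 121 to 547 in Fcgr4+ libraries.

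Other markers differed as well. The sum of 11 mast cell and basophil markers was 14.5 to 30.4 CPM in Fcgr4+ and 394 to 2169 in Fcgr4- libraries, and 10 of 10 tested genes passed as lower, while *Mcpt8* was at 0 counts in all Fcgr4+ libraries. This sum was highest in mouse 1 among Fcgr4- libraries, where *Il1a*, *Il1b*, and *Il1rn* were lowest. The sum of 11 dendritic cell markers was 19.4 to 30.6 CPM in Fcgr4+ and 65.6 to 131 in Fcgr4- libraries, and among Fcgr4- libraries it was highest in mouse 2, as was *Il12b*, while among Fcgr4+ libraries it was highest in mouse 2 and *Il12b* in mouse 3. Among dendritic cell markers 5 of 11 passed as lower. Classical monocyte markers, 2 of 8 of which passed as lower, summed to 773 to 3015 CPM in Fcgr4+ and 753 to 4735 in Fcgr4- libraries, again with the Fcgr4- library of mouse 3 highest. Nonclassical monocyte markers summed to 97.0 to 254 and 124 to 241 CPM, with 1 of 8 passing as higher. The log2 ratio of this sum was 1.04, 0.0044, -1.02, and -0.94 in mice 1 to 4, so it was higher in Fcgr4+ in mouse 1, nearly equal in mouse 2, and lower in mice 3 and 4. The same signs were seen for *Osm* and for the sums of the immediate early, IL-10, and IL-6 and oncostatin M lists. B cell markers summed to 242 to 355 and 468 to 2338 CPM, T and NK cell markers to 75.3 to 173 and 65.3 to 231, fibroblast and mesothelial markers to 109 to 200 and 225 to 827, and endothelial markers to 11.8 to 21.7 and 14.02 to 29.2. The T and NK cell sum went both ways, with log2 ratios of 0.10, -1.19, -0.43, and 0.66 in mice 1 to 4, as did the endothelial sum (-0.06, -1.14, -0.57, and 0.63) and, by 0.04 in mouse 1 against -0.83, -0.65, and -0.17, the classical monocyte sum. Of these lists, 2 of 7, 7 of 11, 4 of 10, and 0 of 7 tested genes passed as lower, and of the endothelial genes 3 had an unadjusted P under 0.05 and 1 passed with DESeq2. Macrophage markers summed to 29627 to 54053 CPM in Fcgr4+ and 22321 to 47388 in Fcgr4- libraries. Their sum was higher in Fcgr4+ in 4 of 4 mice, as were *Il10* and *Il18*, and none of its 10 genes passed with edgeR, while 7 were higher with an unadjusted P under 0.05 and 7 passed with DESeq2. The part of these cells in the differences of the cytokine genes was not tested.

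The genes whose levels over the 8 libraries lay nearest to those of each cytokine gene were found as the smallest root mean square (RMS) difference of log2 CPM after each gene's mean was subtracted, among 13105 genes. Nearest to *Il1b* were *Lcn2*, *Ifitm1*, and *Cxcr2*, at RMS differences of 0.34, 0.34, and 0.37 on the log2 scale, where *Il1b* itself varied by an RMS of 1.47 around its mean. *Clec4e*, *Mcemp1*, and *Sphk1* were nearest to *Il1a*, at 0.36, 0.37, and 0.43, and *Pde4d*, *Rab11fip1*, and *Tnfrsf23* to *Il1rn*, at 0.25, 0.31, and 0.31. *Il1a* and *Il1rn* lay 0.51 from each other, nearer than either did to *Il1b*, at 1.05 and 0.97. Nearest to *Il10* were *Dppa3*, *Gm6091*, and *Hmgb3*, at 0.33, 0.34, and 0.36, and *Il10* lay 0.40 from *Il18* and 1.70 from *Il1b*. *Ifi203*, *Ms4a14*, and *Gm2395* were nearest to *Il18*, at 0.17, 0.20, and 0.23. *Tnf* and *Cxcl2* lay 0.30 apart, the closest pair among the 10, and varied by an RMS of 0.61 and 0.67 around their own means. For *Il1a* and *Il1rn* that RMS was 1.34 and 1.03. Nearest to *Tnf* were *Ripk3*, *Sp100*, and *Carhsp1*, at 0.16, 0.19, and 0.21, and nearest to *Cxcl2* were *Phlda1*, *Marcksl1*, and *Basp1*, at 0.14, 0.19, and 0.19. For *Osm* they were *Sh2b2*, *Slc16a3*, and *Slc2a1*, all at 0.31 to 0.32. *Il6* and *Il12b*, the genes with the lowest counts, had no near neighbor, with the first at 0.67 (*Tgm1*) and 0.65 (*Nup210*). *Klra2* and *Flt1* came next for *Il6*, and *Map10* and *Dpp4* for *Il12b*. These distances rest on 8 libraries of 4 mice and carry no test.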

How the data were processed

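Counts of read pairs per gene were deposited by the authors after alignment to mm10 with STAR and assignment to GENCODE M18 genes with featureCounts 1.6.3. Per the file headers, a pair with several alignments was counted at every one, and strand was ignored. No per-sample column was left unused (0 of them). The exon length per gene is also the authors' deposited value and was used only for levels per kb.

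Libraries were grouped and paired by the population and mouse number in the labels. Both libraries of a number came from 1 mouse, and their deviations from the population means correlated at 0.291 to 0.428, against -0.336 to 0.0116 between mice. The animal ID prefix of mice 1 and 2 differs from that of mice 3 and 4, and its meaning is not given in the sources used here. No libraries were duplicates (lowest chi-square per degree of freedom 83.6). The filter kept genes that reached 10 counts in 4 or more of the 8 libraries, which held 99.8% or more of the counts of a library. After TMM scaling, population was tested in a quasi-likelihood model that also held the mouse (edgeR 4.0.16 in R 4.3.3). P values were adjusted by Benjamini-Hochberg over all 17095 genes, at a threshold of 0.1. Log2 CPM used a prior count of 2. Alternatives were DESeq2 1.42.0, the newer quasi-likelihood method, no block, other scalings and filters, a threshold of 0.05, leaving out each mouse, and each ID prefix alone. The test of the difference between ID prefixes was chosen after seeing the data. The paired fit, the fit without the block, the newer method, and DESeq2 were tested on simulated data. There, the newer method and DESeq2 called more unchanged genes than the paired fit did, and DESeq2 the most.

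List genes absent by symbol were looked up among RefSeq synonyms. The cytokine genes and all gene lists were chosen with earlier results of these data known. Named genes are the cytokine genes, *Fcgr4*, list genes that passed, receptors, subunits, and kin of the cytokines fixed by name, and the 3 nearest genes by profile; other marker genes were named after their values were seen. Promoter windows are those RefSeq gives for GRCm38.p6, matched by symbol for 8 of 10 genes (*Il10* and *Osm* had no entry used here). In the paired fits, P values rest on how the difference between the populations within a mouse varied over the 4 mice.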

Additional observations from a re-analysis of the deposited data

How the results depend on the processing

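Without the replicate block, 48 genes passed in place of 217, with 0 of the 10 cytokine genes and 0 of the related genes (5 with the block). DESeq2 gave 1024 genes, 2 cytokine genes, and 16 related genes, the newer quasi-likelihood method gave 632, 2, and 11, and no filter on low counts gave 1054, 4, and 16. At least 10 counts in all 8 libraries gave 2 cytokine genes. *Il10* was the cytokine gene gained under each of these 4 settings, and without a filter *Il1a* and *Il1rn* also passed. At a threshold of 0.05, 76 genes and 0 cytokine genes passed. Mice 1 and 2 alone gave 113 genes (7 higher), 0 cytokine genes, and 3 related genes, and mice 3 and 4 alone gave 113 genes (29 higher), 1 cytokine gene, and 5 related genes (1 higher). Leaving out 1 mouse in turn gave between 84 and 163 genes, between 0 and 1 cytokine genes, and between 4 and 5 related genes. Signs reversed for *Il6* (0.75 in mice 1 and 2 alone, -0.79 to 0.31 when 1 mouse was left out, reversed without replicate 3), *Osm* (0.17 in mice 1 and 2 alone), and *Cxcl2* (0.11 in mice 1 and 2 alone), none of which passed. The log2 fold changes of *Il10*, *Il18*, *Il1b*, *Il1a*, *Il1rn*, *Tnf*, and *Il12b* kept their sign under every setting run. Fits within an ID prefix rest on 2 mice, and the causes of these changes were not tested. *Il12b* could not be fitted under the filter on all 8 libraries. *Il12b* had 4 counts or fewer in 2 of its Fcgr4+ libraries, and all values rest on 4 mice.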
